A study of Homo sapiens with 6 samples.

Results

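KITLG, BDNF and LIF encode 3 secreted growth factors. They are 3 of the 31628 genes in the deposited table and were selected by exact gene symbol, with their levels in the same libraries already known. All 3 were found, as ENSG00000049130.9 (KITLG, on chromosome 12), ENSG00000176697.14 (BDNF, on chromosome 11) and ENSG00000128342.4 (LIF, on chromosome 22). Their levels in the 3 groups of libraries were what brought them together, so those levels and differences are given below as a description, without a p-value.

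KITLG, also called stem cell factor, is made as a membrane protein and can be shed from the cell surface. It binds the receptor tyrosine kinase KIT on haematopoietic stem cells, mast cells, melanocytes and germ cells. BDNF is a neurotrophin, processed by proprotein convertases, that binds the receptor kinase TrkB (NTRK2) and the p75 receptor (NGFR). Its precursor binds p75 with sortilin (SORT1). LIF is a cytokine of the interleukin-6 family whose receptor pairs LIFR with gp130 (IL6ST) and acts through JAK kinases and STAT3. BDNF is transcribed from several alternative promoters that splice to a shared coding exon.

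The cells were HCT116, a human colon cancer line, in which ENL carries an auxin-inducible degron (AID), and which also express AtAFB2, the plant ligase subunit that sends a degron-tagged protein for degradation when auxin is added. ENL, encoded by MLLT1, reads acetylated histones. All 3 groups carried the degron and AtAFB2. The washout cells (2 libraries) had been given the auxin IAA for 3 h at 500 um (as written in the labels), washed with PBS and grown without it for a further 48 h. The IAA cells (2 libraries) were harvested after the 3 h at 500 um, and the control cells (2 libraries) were left without IAA. The degron cells were selected as clones with puromycin and blasticidin, and the number of clones behind the libraries was not given in the sources used here. No cells that lack the degron were given IAA among these samples, so an effect of IAA itself and the loss of ENL cannot be told apart. The washed cells differ from both other groups in the wash and the longer culture as well.

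Values are the deposited FPKM, read counts scaled to the gene's kilobases and to the size of the library. The kilobases are those of the whole gene with its introns, so levels are compared between genes per kilobase of exon instead. The library totals inferred from the steps between low values were 16442840 to 16770850 reads, and the reads recovered per gene summed to 104.75% to 105.13% of them. Per library 18474 to 18853 genes were above 0. Marker levels are FPKM over the whole gene, on which scale long genes read low. Of 10 markers of intestinal epithelium 7 had a mean of at least 1 FPKM (KRT18 highest, 156.1 FPKM; CEACAM5 at 0), and their summed level was 324.2 to 339.8 FPKM in washout, 268.5 to 272.5 FPKM in IAA and 336.4 to 346.5 FPKM in control. No marker of fibroblasts (0 of 6), of endothelium (0 of 3; PECAM1 was not matched) or of blood (0 of 4) reached 1 FPKM. The fibroblast genes summed to 0.727 to 0.756 FPKM in washout, 0.618 to 0.773 FPKM in IAA and 0.523 to 0.545 FPKM in control, with COL1A1 the highest at 0.642 FPKM. The endothelial and blood sums were at most 0.0621 FPKM in any library. Of 7 mast cell and melanocyte genes 1 did, PMEL at 1.617 FPKM, while TPSAB1, CPA3, MS4A2 and TYR stood at 0, and the list summed to 1.711 to 1.821 FPKM in washout, 1.629 to 1.654 FPKM in IAA and 1.458 to 1.583 FPKM in control. Of 7 neuron and Schwann cell genes 0 reached 1 FPKM (SYT1 highest, 0.127 FPKM; STMN2, TUBB3 and S100B at 0), and they summed to 0.121 to 0.142 FPKM in washout, 0.159 to 0.165 FPKM in IAA and 0.135 to 0.136 FPKM in control. The part of these shifts in the results below was not tested. MLLT1 itself had 0.399 ± 0.021 FPKM in washout, 0.381 ± 0.033 FPKM in IAA and 0.420 ± 0.011 FPKM in control (SD, n = 2 each), and since the degron acts on the protein, its transcript does not check the treatment.

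Promoters are shown for KITLG and BDNF, the transcripts of both being lower in IAA, and none was found for LIF. The windows run from 250 bases before to 50 bases after a transcript start, read 5′ to 3′ on the minus strand of GRCh38.p14, and come from RefSeq. A window was found for KITLG, and 5 were found for BDNF, of which those with a CRE core or an E-box are printed. Capitals mark matches, on either strand, to 1 of 5 motifs. The CRE core (cyclic AMP response element, bound by CREB and its relatives) was searched as ACGTCA. The E-box, bound by basic helix-loop-helix factors, was searched as CACGTG, and the AP-1 site of FOS and JUN dimers as TGANTCA. The core of the dioxin response element was searched as GCGTG and the TATA box, which positions the general transcription machinery, as TATAAA.
KITLG, chr12:88580422-88580721: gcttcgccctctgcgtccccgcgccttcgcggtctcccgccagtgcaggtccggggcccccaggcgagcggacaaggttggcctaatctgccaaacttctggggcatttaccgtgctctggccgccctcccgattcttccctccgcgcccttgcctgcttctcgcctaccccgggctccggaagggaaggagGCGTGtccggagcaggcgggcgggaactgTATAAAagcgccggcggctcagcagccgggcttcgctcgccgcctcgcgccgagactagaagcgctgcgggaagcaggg
BDNF, chr11:27720730-27721029: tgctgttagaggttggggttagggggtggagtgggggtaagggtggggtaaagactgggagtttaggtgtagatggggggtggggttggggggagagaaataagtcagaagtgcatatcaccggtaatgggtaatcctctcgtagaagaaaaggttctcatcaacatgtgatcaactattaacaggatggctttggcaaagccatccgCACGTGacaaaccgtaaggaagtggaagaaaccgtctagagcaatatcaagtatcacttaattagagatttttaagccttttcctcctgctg
BDNF, chr11:27701572-27701871: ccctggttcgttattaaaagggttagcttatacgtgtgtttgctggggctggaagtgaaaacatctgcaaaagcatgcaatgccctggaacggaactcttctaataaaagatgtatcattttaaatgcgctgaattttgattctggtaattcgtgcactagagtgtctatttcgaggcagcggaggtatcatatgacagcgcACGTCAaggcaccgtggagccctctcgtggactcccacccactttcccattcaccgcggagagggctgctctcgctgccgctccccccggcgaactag
The KITLG window held a TATA box at its bases 222 to 227 and the dioxin core at bases 193 to 197. In BDNF the first window shown held the E-box at bases 209 to 214 and the second the CRE core at bases 203 to 208. Another BDNF window held the dioxin core and the remaining ones none of the 5 motifs, and no window of either gene held the AP-1 letters. Of 35116 promoters of this length 11.5% held the TATA box, 36.5% the dioxin core, 7.26% the E-box, 7.98% the CRE core and 7.71% the AP-1 site. These shares are per window, and with 5 windows searched BDNF had more occasions for a match. A match describes the letters and is not a measured binding site. The FPKM are 1 value per gene, so they do not say which BDNF promoter was in use.

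KITLG transcripts were lower after 3 h of IAA and partly back after washout. KITLG had 18.85 and 18.66 FPKM in washout, 13.06 and 13.77 FPKM in IAA, and 22.78 and 21.94 FPKM in control. The groups did not overlap, with the washout libraries between the others and nearer to control. The means were 18.76 ± 0.14 FPKM in washout, 13.42 ± 0.50 FPKM in IAA and 22.36 ± 0.60 FPKM in control (SD, n = 2 each), which puts washout at 83.88% and IAA at 60.01% of control. In recovered reads these are 27748 and 27352 in washout, 18916 and 20337 in IAA, and 33327 and 32380 in control, so counting error is small beside the differences. On the log2(FPKM + 0.1) scale the change was -0.73 for IAA against control, 0.48 for washout against IAA and -0.25 for washout against control, each with an SE of 0.04. Fewer cells that make a transcript and less of it per cell cannot be told apart in RNA from whole cultures.

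BDNF had the lowest level of the 3 genes and, as a ratio of mean FPKM, the largest difference between IAA and control. It had 1.117 and 1.182 FPKM in washout, 0.426 and 0.474 FPKM in IAA, and 1.275 and 1.341 FPKM in control. Both IAA libraries lay far below the other 4, and both washout libraries lay just below the control libraries. The means were 1.150 ± 0.046 FPKM in washout, 0.450 ± 0.034 FPKM in IAA and 1.308 ± 0.046 FPKM in control (SD, n = 2 each), which is 87.9% of control in washout and 34.4% in IAA. The reads behind them were 1254 and 1322 in washout, 470 and 534 in IAA, and 1423 and 1510 in control. The log2 change was -1.36 (SE 0.07) for IAA against control, 1.19 (SE 0.07) for washout against IAA and -0.17 (SE 0.07) for washout against control. With a pseudocount of 1 in place of 0.1 the first of these shrinks to -0.67, beside -0.70 for KITLG, so the ratios of mean FPKM, 0.344 for IAA over control and 2.56 for washout over IAA, are the better guide to its size. Of the 14809 genes that passed the filter on low values, 254 had a more negative log2 change than BDNF in IAA against control and 548 a more negative one than KITLG.

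LIF went the other way and by little. LIF had 42.88 and 42.69 FPKM in washout, 50.56 and 52.33 FPKM in IAA, and 45.73 and 48.51 FPKM in control. The IAA libraries were the highest and the washout libraries the lowest, with control between them. The means were 42.79 ± 0.14 FPKM in washout, 51.45 ± 1.2 FPKM in IAA and 47.12 ± 1.97 FPKM in control (SD, n = 2 each), or 90.8% of control in washout and 109% in IAA. The reads were 4591 and 4552 in washout, 5325 and 5621 in IAA, and 4865 and 5208 in control. The log2 change was 0.13 (SE 0.04) for IAA against control, -0.27 (SE 0.04) for washout against IAA and -0.14 (SE 0.04) for washout against control. The first ran from 0.085 to 0.169 as each library was left out in turn. Its sign could not change there, since both IAA libraries lay above both control libraries. In IAA against control 4650 genes had a higher log2 change than LIF.

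**Figure D1:**
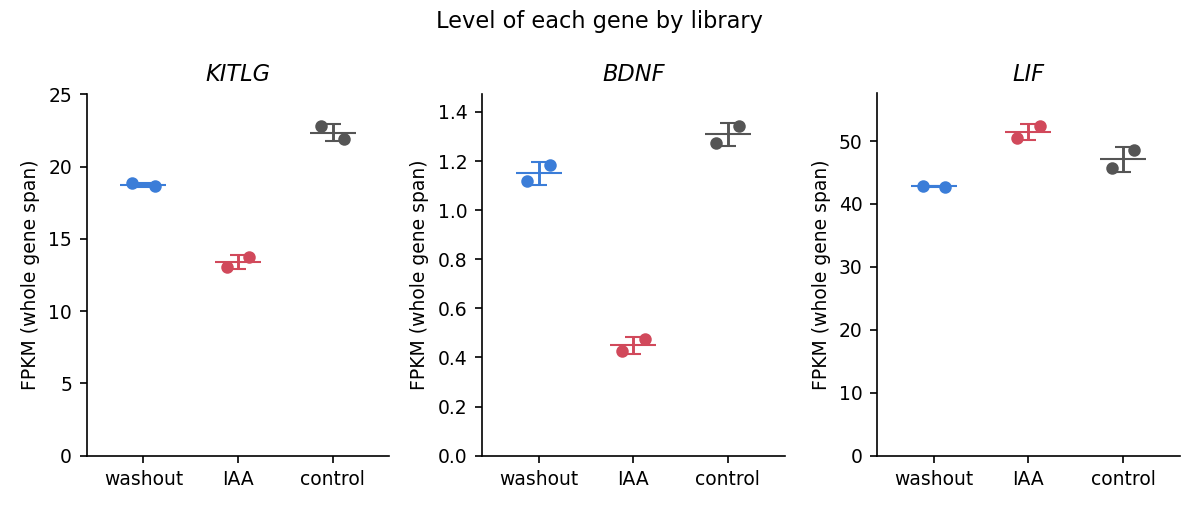
FPKM (y axis, from 0, per kilobase of whole gene) of KITLG, BDNF and LIF in the washout, IAA and control groups (x axis); dots are the 2 libraries of a group, horizontal marks their mean and bars the SD. KITLG and BDNF are lowest in IAA and LIF is lowest in washout, with no overlap between groups in any panel.

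Across the 3 genes, 2 of 3 were lower in both IAA libraries than in both control libraries (KITLG and BDNF) and 1 of 3 was higher (LIF). Over all 14809 genes 24.2% were lower and 32.7% higher in that sense. In washout against IAA 2 of 3 were higher and 1 of 3 lower, beside 27.0% and 30.5% of all genes. In washout against control 3 of 3 were lower, beside 17.0% of all genes lower and 22.5% higher. The genes were picked with these values in view, so the counts are given beside the background and carry no inference.

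The degree of recovery was expressed as the washout-minus-IAA difference in percent of the control-minus-IAA difference. For BDNF it was 81.5%, with 74.2% to 89.0% over the 8 ways of taking 1 library per group. For KITLG it was 59.7%, with 54.2% to 65.3% over the same 8 ways. These ranges reuse the same 2 libraries per group, and a difference between the genes was not tested. In FPKM, KITLG regained 5.34 of a difference of 8.94, and BDNF 0.700 of 0.858. After 48 h KITLG stood at 83.4% and 84.3% of the control mean in the washout libraries, and BDNF at 85.4% and 90.4%. The log2 change for washout against control was -0.25 (SE 0.04) for KITLG and -0.17 (SE 0.07) for BDNF. Whether these remaining gaps differ was not tested. For LIF the level after washout passed below control: the washout-minus-IAA difference was -8.66 FPKM, the control-minus-IAA difference -4.33 FPKM and the washout-minus-control difference -4.33 FPKM. Its percentage, 143% to 383% over the same 8 ways, rests on a small difference between control and IAA and describes little more than the change of side.

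Per kilobase of exon the order of the genes changed. KITLG spans 88059 bases, of which 6205 are exonic in GENCODE 29. BDNF has 7740 exonic bases in 67166, and LIF 3969 in 6405. In reads per kilobase of exon, scaled to library size like FPKM, KITLG had 266.2 ± 2.0 in washout, 190.4 ± 7.1 in IAA and 317.3 ± 8.5 in control (SD, n = 2 each). LIF had 69.1 ± 0.2 in washout, 83.0 ± 2.0 in IAA and 76.0 ± 3.2 in control, and BDNF 9.98 ± 0.40 in washout, 3.90 ± 0.30 in IAA and 11.4 ± 0.4 in control. KITLG was therefore the highest of the 3 in every group per length of exon, and LIF in every group by FPKM. All recovered reads of a gene were divided by its exon length, and whether reads from introns were counted was not checked. Such reads could raise KITLG and BDNF more than LIF on this scale, and with them the ranks. In control, 145 genes of the table exceeded KITLG per kilobase of exon, 693 exceeded LIF and 5219 exceeded BDNF.

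Among 112 secreted growth factors and cytokines, the 3 genes included, KITLG ranked 2nd per kilobase of exon in control cells. Only DKK1, a secreted WNT inhibitor, had more (442.7). Behind KITLG followed the bone morphogenetic protein BMP4 (198.3), the EGF receptor ligand EREG (191.7) and the cytokine MIF (113.1), then LIF in rank 6 and BDNF in rank 23. By FPKM the ranks were 9 for KITLG, 4 for LIF and 31 for BDNF.

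**Figure D2:**
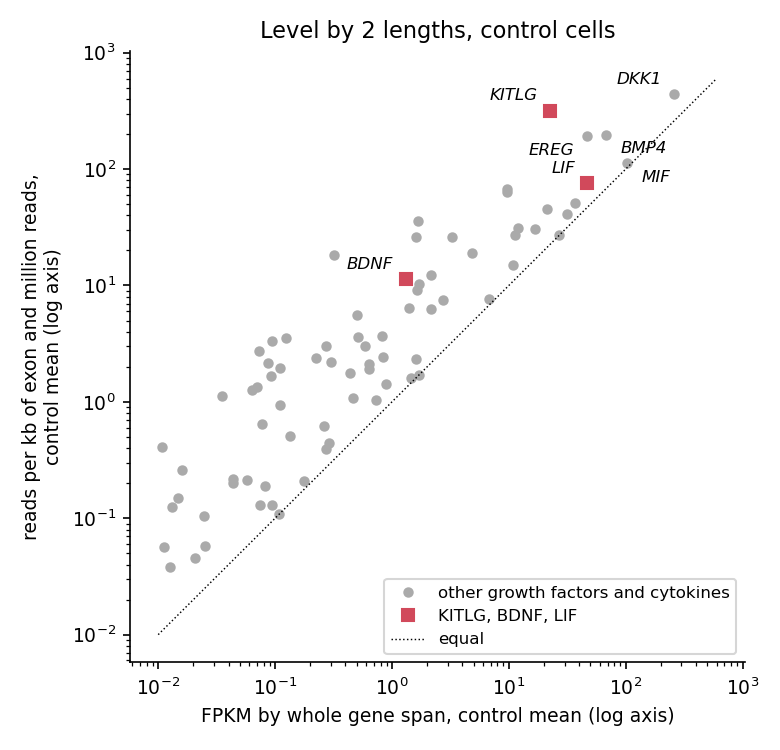
Mean level in the control libraries of secreted growth factors and cytokines, by FPKM over the whole gene (x axis, log) and by reads per kilobase of exon scaled to library size (y axis, log); red squares are KITLG, BDNF and LIF, grey dots the other genes, and the dotted line marks equal values. The 78 of 112 genes above 0.01 on both axes are drawn; KITLG lies further above the line than LIF.

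The 3 genes share exon bases with antisense genes of the annotation. BDNF-AS covers 701 bases, or 9.06%, of the BDNF exons. AC024941.2 covers 80 bases (1.29%) of KITLG, and LIF-AS1 and AC004264.1 cover 92 bases (2.32%) and 175 bases (4.41%) of LIF. Strand-aware counting is neither stated nor denied in the sources used here, so reads from these partners cannot be told apart from those of the 3 genes at the shared bases. None of the 4 antisense genes has a value used here.

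The receptors of KITLG and BDNF were at or near 0, other than NGFR and SORT1. KIT was listed at 0 in both washout and both IAA libraries and in the first control library, with a single read in the second. NTRK2, the TrkB receptor, had a single read in the first washout and the first IAA library and 0 in the other 4. NGFR, which binds all neurotrophins, had 1.87 and 1.48 FPKM in washout, 2.03 and 2.23 FPKM in IAA, and 1.66 and 1.43 FPKM in control. Its IAA libraries were the highest, but the difference from control (log2 change 0.44, limma adjusted p = 0.147) did not pass the threshold of an adjusted p under 0.05. SORT1, the sorting receptor for the BDNF precursor, had 0.625 ± 0.014 FPKM in washout, 0.658 ± 0.013 FPKM in IAA and 0.632 ± 0.034 FPKM in control, with a log2 change of 0.05 for IAA against control (limma adjusted p = 0.629).

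Both receptor chains of LIF were detected, with 1138 to 1482 reads of IL6ST and 309 to 437 reads of LIFR per library. IL6ST, the signalling chain gp130, had 1.249 and 1.168 FPKM in washout, 1.501 and 1.475 FPKM in IAA, and 1.248 and 1.133 FPKM in control. LIFR had 0.178 and 0.139 FPKM in washout, 0.198 and 0.195 FPKM in IAA, and 0.163 and 0.141 FPKM in control. For both the IAA libraries lay above all others. The log2 change for IAA against control was 0.30 for IL6ST (limma adjusted p = 0.0676) and 0.24 for LIFR (limma adjusted p = 0.318). In the test on recovered reads (limma voom) the adjusted p was 0.00111 for IL6ST, 0.0289 for LIFR and 0.00145 for NGFR, so the call for these 3 receptors depends on the test. Over all genes 10.7% rose and 12.9% fell by voom in IAA against control.

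The further genes of each pathway were tested on log2(FPKM + 0.1) with limma, adjusted over all 14809 genes, of which 4.4% rose and 3.77% fell in IAA against control. In washout against IAA 4.33% rose and 4.15% fell, and in washout against control 0.101% rose and 0.081% fell (15 and 12 genes). The median log2 change of all genes was 0.027, -0.012 and 0.01 in these 3 comparisons. IAA enters the first 2 of them and control the first and the last, so their values are not independent.

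Of 26 genes written down for the receptor and signalling of KITLG, 18 passed the filter. In IAA against control 2 rose, 1 fell and 15 did not pass the test, with a median log2 change of -0.001. PIK3CA, a catalytic subunit of PI3 kinase, rose to 0.385 ± 0.004 FPKM in IAA, against 0.251 ± 0.015 FPKM in control (adjusted p = 0.0362). PTPN6, the phosphatase SHP-1 that restrains KIT, rose 1.39 times (adjusted p = 0.0279), and SOCS6, an adaptor that binds active KIT and promotes its degradation, fell to 2.27 ± 0.06 FPKM, against 2.81 ± 0.03 FPKM in control (adjusted p = 0.0263). After washout 2 genes rose and 3 fell against IAA, with a median of 0.019. PIK3CA (log2 change -0.49) and PTPN6 (-0.36) fell while SOCS6 (0.23) and the adaptor SHC1 (0.26) rose. Without any 1 of the 6 libraries none of these passed, with adjusted p between 0.0704 and 0.153, and the list then had 0 calls in both comparisons.

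Of 31 genes for the receptors, family and processing of BDNF, 16 passed the filter. In IAA against control 3 rose, 1 fell and 12 did not pass, with a median log2 change of 0.071. PCSK7, a proprotein convertase of the family that cleaves neurotrophin precursors, fell to 1.75 ± 0.12 FPKM in IAA, against 2.44 ± 0.07 FPKM in control (adjusted p = 0.0301), and rose again in washout against IAA (log2 change 0.51, adjusted p = 0.0246). ARC, an immediate early gene that BDNF induces in neurons, rose to 3.73 ± 0.08 FPKM, against 2.33 ± 0.20 FPKM in control (adjusted p = 0.0456). FRS2, a docking protein of Trk and FGF receptors, rose 1.32 times (adjusted p = 0.0362) and fell in washout against IAA (log2 change -0.41), and SQSTM1, a scaffold protein of autophagy and receptor trafficking, rose 1.16 times (adjusted p = 0.0488). Between washout and IAA 1 rose, 1 fell and the median was -0.143. Leaving out any 1 of the 6 libraries took the adjusted p of these calls to between 0.0693 and 0.193, and the list to 0 calls.

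Of 25 genes for the receptors, family and signalling of LIF, 20 passed the filter and none passed the limma test in either comparison with IAA, where 8 had an unadjusted p under 0.05 in each. Of all genes 26.9% had such a p in IAA against control and 27.8% in washout against IAA. The median log2 change was 0.181 for IAA against control, with 15 of 20 above 0 beside 55.9% of all genes, and 0.017 for washout against IAA. In voom, 4 rose and 2 fell of 21 in IAA against control, beside the shares of all genes given above. In washout against IAA 3 rose and 3 fell by voom, where 13.3% of all genes rose and 11.8% fell.

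Genes that STAT3 is known to drive were divided. Of 26 tested (30 written), 7 rose and 3 fell in IAA against control, with a median log2 change of 0.035, and 4 rose and 6 fell in washout against IAA, with a median of -0.031. IRF1, an interferon-responsive transcription factor, was at 2.97 ± 0.19 FPKM in IAA and 1.80 ± 0.03 FPKM in control (adjusted p = 0.0167). The AP-1 subunit JUNB (1.296 times, adjusted p = 0.0263), the kinase PIM1 (1.32 times, adjusted p = 0.0367) and the mRNA decay factor ZFP36 (1.31 times, adjusted p = 0.0265) rose as well. CCND1, cyclin D1, fell to 88.7 ± 2.1 FPKM in IAA, against 142.3 ± 4.4 FPKM in control (adjusted p = 0.00749). The transcription factor KLF5 (0.701 times, adjusted p = 0.0179) and BCL2L1, which encodes the survival protein BCL-xL (0.727 times, adjusted p = 0.0155), fell too. After washout CCND1 (log2 change 0.62) and BCL2L1 (0.39) rose and PIM1 (-0.45) and IRF1 (-0.45) fell, each against IAA. CCND1 passed in IAA against control without each of the 6 libraries (adjusted p 0.0408 to 0.0494) but reached an adjusted p of 0.0675 in washout against IAA without washout replicate 1, while the other genes named here did not pass without at least 1 library, and the list kept 1 to 2 calls there and 0 to 1 in washout against IAA.

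Of 35 transcription factors and cofactors written down as regulators of the 3 genes, 32 were tested. In IAA against control 6 rose and 2 fell, with a median log2 change of 0.067, and in washout against IAA 1 rose and 5 fell, with a median of -0.045. FOS, an AP-1 subunit, had 2.05 ± 0.10 FPKM in washout, 6.85 ± 0.27 FPKM in IAA and 2.36 ± 0.06 FPKM in control (adjusted p = 0.00488 for IAA against control). EGR1, an immediate early factor, was at 37.4 ± 1.3 FPKM in IAA and 15.9 ± 1.5 FPKM in control (adjusted p = 0.0121). ETS1 (1.62 times, adjusted p = 0.0166) and the AP-1 subunit JUN (1.44 times, adjusted p = 0.0498) rose. ATF1, a CREB-related factor that binds CRE sites, fell to 0.526 ± 0.030 FPKM, against 0.722 ± 0.017 FPKM in control (adjusted p = 0.0348), and TCF7L2, a WNT pathway factor, fell to 0.334 ± 0.006 FPKM, against 0.508 ± 0.004 FPKM in control (adjusted p = 0.0259). Against IAA, FOS (log2 change -1.69) and EGR1 (-1.39) fell in washout and TCF7L2 (0.37) rose. FOS kept an adjusted p of 0.0154 to 0.0362 in both comparisons without each of the 6 libraries. The others lost the call without at least 1 library, EGR1 for one at an adjusted p of 0.0945 without IAA replicate 1, and 1 to 2 calls of the list were left.

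Of the 109 other secreted growth factors and cytokines, 51 were tested. The list is not complete, as it lacks the WNT ligand WNT16 (log2 change -0.72 for IAA against control). In IAA against control 8 rose, 6 fell and 37 did not pass, with a median log2 change of 0.08. KITLG and BDNF lay on the side of the fallers, BDNF with a lower log2 change than any of the 51 and KITLG below most of them. By the ratio of mean FPKM, which no pseudocount enters, EDN1 (0.314) was lower than BDNF (0.344). EDN1, the vasoconstrictor endothelin-1, had 0.199 ± 0.034 FPKM in IAA and 0.632 ± 0.004 FPKM in control (adjusted p = 0.0148), on 20 to 25 reads per IAA library. PDGFB, a ligand of the PDGF receptors, had 0.971 ± 0.034 FPKM in IAA and 2.17 ± 0.03 FPKM in control (adjusted p = 0.00488). BMP4 had 33.0 ± 0.5 FPKM in IAA and 67.7 ± 1.3 FPKM in control (adjusted p = 0.00417), and JAG1, a Notch ligand, 2.72 ± 0.04 FPKM in IAA and 4.86 ± 0.02 FPKM in control (adjusted p = 0.0101).

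Other secreted factors rose. FGFBP1, a carrier of fibroblast growth factors, was 3.42 times higher in IAA than in control (adjusted p = 0.0405) on 22 to 96 reads per library. The glycoprotein STC2 was at 24.6 ± 0.9 FPKM in IAA and 11.3 ± 0.1 FPKM in control (adjusted p = 0.00488). The EGF receptor ligand HBEGF (1.94 times, adjusted p = 0.0152) and the stress-induced cytokine GDF15 (1.74 times, adjusted p = 0.0146) rose as well. In washout against IAA 5 rose and 7 fell, with a median of -0.049, among them PDGFB (log2 change 1.23) and EDN1 (1.11), which rose, and FGFBP1 (-1.41) and STC2 (-1.23), which fell. STC2, PDGFB and BMP4 passed in both comparisons without each of the 6 libraries, at an adjusted p of at most 0.0386. FGFBP1 (up to 0.181), HBEGF (0.105), GDF15 (0.0981), EDN1 (0.106) and JAG1 (0.0841) did not, and 4 to 7 calls of the list were left.

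**Figure D3:**
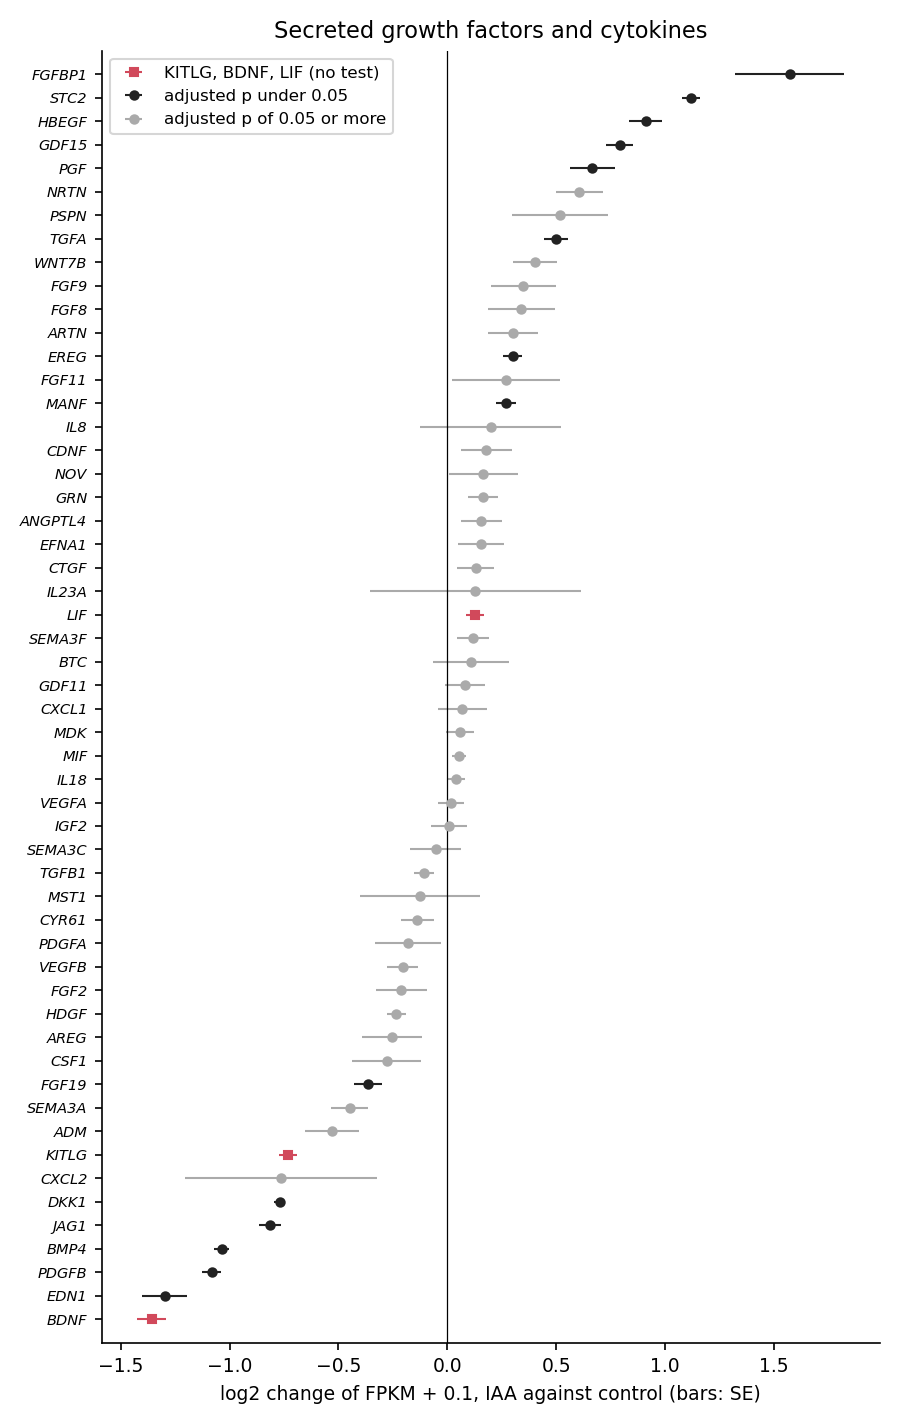
Log2 change of FPKM + 0.1 in IAA against control (x axis) with its SE (bars) for the 51 tested growth factors and cytokines and for KITLG, BDNF and LIF, ordered by change (y axis). Red squares are the 3 genes, for which no test is given; black dots have a limma adjusted p under 0.05 and grey dots do not. BDNF (-1.36) stands at the lower end, KITLG (-0.73) among the fallers and LIF (0.13) near the middle.

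In washout against control none of the 6 lists had a gene that passed the limma test. At an unadjusted p under 0.05 there were 1 for KITLG, 1 for BDNF, 2 for LIF, 3 of the STAT3 targets, 4 of the regulators and 11 of the growth factors, where 8.54% of all genes had such a p. With voom 1 rose in the LIF list, 1 fell among the STAT3 targets and 2 fell among the growth factors, and there were 0 calls in the other 3 lists. By voom 0.243% of all genes rose and 0.405% fell in this comparison.

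The genes with the pattern nearest to each of the 3 were found among 8054 genes that averaged 1 FPKM or more, by Euclidean distance of log2(FPKM + 0.1), centred on each gene's mean, over the 6 libraries. Nearest to KITLG were NFAT5, a transcription factor of the osmotic stress response (distance 0.099), WNT16, a WNT ligand (0.113), and CHST3, a chondroitin sulfotransferase (0.187). NFAT5 had 2.93 ± 0.13 FPKM in washout, 1.97 ± 0.05 FPKM in IAA and 3.32 ± 0.14 FPKM in control, and WNT16 8.63 ± 0.22 FPKM in washout, 5.96 ± 0.43 FPKM in IAA and 9.88 ± 0.25 FPKM in control. Like KITLG, all 3 stood between IAA and control after washout. Nearest to BDNF were HS3ST1, a heparan sulfate sulfotransferase (0.169), TNS4, a tensin of focal adhesions (0.181), and NR2F1, an orphan nuclear receptor (0.214). HS3ST1 had 3.06 ± 0.01 FPKM in washout, 1.24 ± 0.04 FPKM in IAA and 3.39 ± 0.04 FPKM in control.

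Nearest to LIF were ODF2, a centrosome protein (0.039), ENTHD2 (0.054) and SLC25A25, a mitochondrial carrier (0.059). ODF2 had 1.92 ± 0.02 FPKM in washout, 2.32 ± 0.07 FPKM in IAA and 2.11 ± 0.04 FPKM in control. These distances are small because the LIF pattern itself is flat. Likeness over 6 libraries of 3 groups describes the order and size of the group differences and nothing more.

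**Figure D4:**
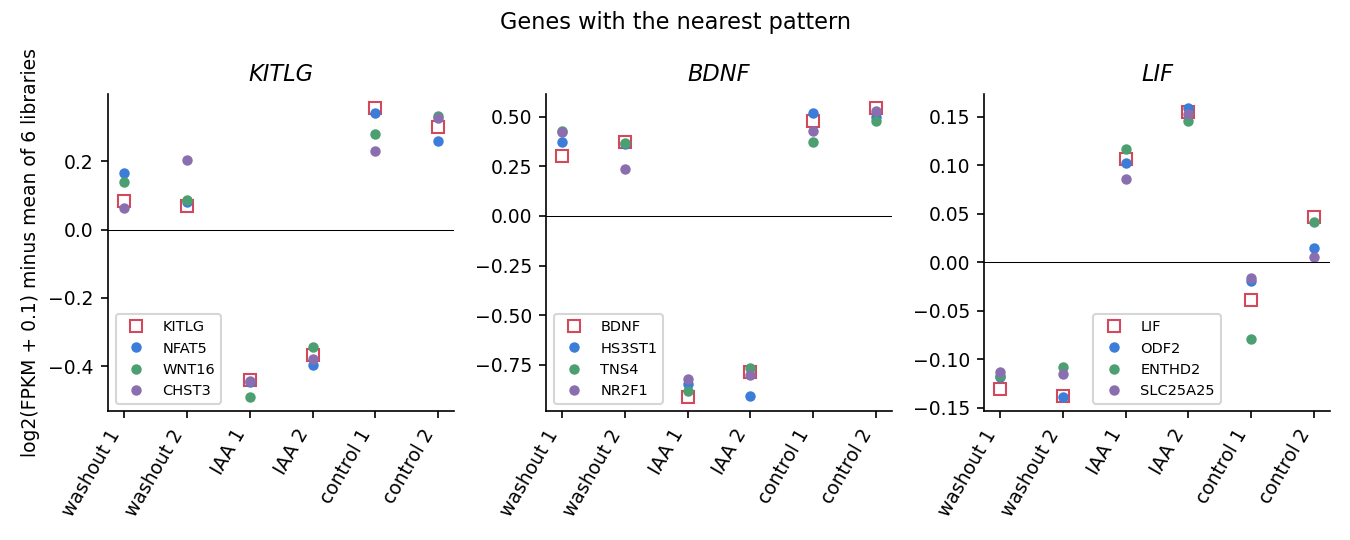
Log2(FPKM + 0.1) minus its mean over the 6 libraries (y axis) in each library (x axis: washout, IAA, control, 2 each) for KITLG, BDNF and LIF (open red squares) and the 3 genes nearest to each (filled dots). The vertical scales differ between panels; the BDNF panel runs from -0.91 to 0.54 and the LIF panel from -0.14 to 0.16.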

How the data were processed

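Poly(A)-selected RNA of 6 libraries, 2 per group, was sequenced. The deposited values are FPKM, 1 per gene and library. HISAT, Bowtie2, HTSeq and edgeR and the build hg19 are listed per the submitters' processing notes, their roles and versions being not given in the sources used here. KITLG, BDNF and LIF and all gene lists were chosen with earlier results of these data known.

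The steps between low FPKM values gave the library totals. FPKM multiplied by the library total and the whole gene span of GENCODE 29 gave whole reads (tolerance 0.02) for 77.7% of 21707 genes above 0. GENCODE 29, a GRCh38 annotation, was used for spans, exon lengths, names and neighbours and held 94.3% of the gene IDs. Reads recovered in this way summed to 104.75% to 105.13% of the totals from the steps, for a reason not stated. The reads of KITLG, BDNF and LIF followed from their spans.

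Genes with a mean of at least 0.1 FPKM (14809) were fitted on log2(FPKM + 0.1) by limma 3.58.1 (R 4.3.3), with the prior variance following a trend, group means of all 6 libraries, 3 residual and 1.32 prior degrees of freedom. The fit was tested on simulated data. Tests are two-sided, Benjamini-Hochberg adjusted over all genes, with a threshold of 0.05. Ratios are of mean FPKM. The lower filter and pseudocount keep long genes such as BDNF. Alternatives were pseudocounts of 1 and 0.01, a filter at 1 or none, TPM, median centring, no trend, voom on recovered reads (at least 10 on average), a replicate block and leaving out each library.

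The text names the 6 receptors, MLLT1, up to 4 rising and 4 falling genes per list with the largest change in IAA against control that passed the test (2 and 2 in the other comparisons), and the 3 genes nearest in pattern to each of the 3 growth factors. The labels do not say what a replicate is, so p-values measure only the spread between these samples. Replicates differed by more than read counting (chi-square per gene 2.66 to 3.25). From the neuron and Schwann cell markers 1 gene is not reported here and is left out of their sum.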

Additional observations from a re-analysis of the deposited data

How the results depend on the processing

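KITLG, BDNF and LIF kept the direction of all 3 log2 changes under every alternative run. The filters, the fit without a trend and the replicate block cannot alter these log2 changes. With no overlap between groups, leaving out a library could not turn their direction either. BDNF has no value with a filter at a mean FPKM of 1, which it does not reach. KITLG in washout against IAA was 0.525 after rescaling to TPM. BDNF in IAA against control was -0.671 with a pseudocount of 1, -1.521 with 0.01, -1.532 in TPM and -1.577 in voom. In washout against IAA it was 0.568, 1.336, 1.355 and 1.376 in the same order, and in washout against control -0.103 with a pseudocount of 1. With each library left out LIF ran from 0.085 to 0.169 in IAA against control and from -0.181 to -0.096 in washout against control. Changed genes numbered 1210 in IAA against control, with 3495 in voom and 116 to 175 with a library left out, and 1255 in washout against IAA, with 3726 in voom and 114 to 154 with a library left out. The 27 in washout against control became 9 with a pseudocount of 0.01, 0 with a filter at 1 and either pseudocount, 52 without a filter, 4 in TPM, 96 in voom and 52 to 84 with a library left out. For IAA against control, voom called 13 of 22 tested in the KITLG list, 7 of 20 in the BDNF list, 6 of 21 in the LIF list, 14 of 34 regulators and 23 of 62 growth factors, beside 10.7% of all genes rising and 12.9% falling. It also called 15 of 26 STAT3 targets there. For washout against IAA it called 8 of 20 in the BDNF list, 6 of 21 in the LIF list, 16 of 26 STAT3 targets, 14 of 34 regulators and 28 of 62 growth factors, beside 13.3% of all genes rising and 11.8% falling. In the KITLG list it called 7 of 22 there. The KITLG list had 3 calls in washout against IAA with a filter at 1 and either pseudocount, without a filter and without the trend. The BDNF list had 1 call in IAA against control without a filter and 2 in TPM or without the trend, and 1 in washout against IAA with a filter at 1 and either pseudocount. The STAT3 targets had 6 in IAA against control without a filter. With a library left out, the KITLG and BDNF lists had 0 calls in both comparisons, STAT3 targets 1 to 2 and 0 to 1, regulators 1 to 2 and growth factors 4 to 7 in both, by a fit with fewer samples. Replicate numbers were not used to pair samples, since the deviations of same-numbered libraries correlated at only 0.016 to 0.072. With them as a replicate block 73, 77 and 0 genes passed in the 3 comparisons, 0 of the KITLG, BDNF and STAT3 lists, 1 regulator and 4 growth factors in each comparison with IAA; the cause of these shifts was not tested. Of 68 calls of named genes, 10 held under every alternative and 0 turned direction. Rescaling shifted library medians by at most 0.036 on the log2 scale. Each group has 2 libraries, which limits what can be said of small changes such as that of LIF.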

Other observations

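The nearest protein-coding neighbours of the 3 genes were looked up after their values were seen. By limma 4.4% of all genes rose in IAA against control and 4.15% fell in washout against IAA. By voom 10.7% rose and 12.9% fell in IAA against control, and 13.3% rose and 11.8% fell in washout against IAA. Beside KITLG, DUSP6, a phosphatase of ERK, had 83.5 ± 0.3 FPKM in washout, 77.4 ± 2.3 FPKM in IAA and 82.3 ± 0.7 FPKM in control (SD, n = 2 each; limma adjusted p = 0.177 for IAA against control), and TMTC3, CEP290 and POC1B did not pass the test in any comparison either. Beside BDNF, LGR4, a receptor for R-spondins, rose to 0.356 ± 0.009 FPKM in IAA, against 0.225 ± 0.005 FPKM in control (limma adjusted p = 0.0362), while BDNF was lower there. LGR4 fell again in washout against IAA (log2 change -0.51, adjusted p = 0.0334), and LIN7C, which adjoins BDNF, fell in that comparison as well (log2 change -0.41, adjusted p = 0.0291). Without any 1 of the 6 libraries these calls were lost, with adjusted p up to 0.130 and 0.119 for LGR4 and 0.134 for LIN7C. KIF18A and METTL15, on the other side of BDNF, did not pass. KIF18A moved as BDNF did, with a log2 change of -0.25 for IAA against control and 0.25 for washout against IAA (limma voom adjusted p = 0.000695 and 0.00103). METTL15 moved the other way, with 0.14 and -0.18 (limma voom adjusted p = 0.0454 and 0.00488). DUSP6 moved as KITLG did, with -0.09 and 0.11 (limma voom adjusted p = 0.0134 and 0.00951). TMTC3, CEP290 and POC1B did not pass by voom. Beside LIF, MTMR3 had 0.437 ± 0.029 FPKM in IAA and 0.342 ± 0.006 FPKM in control (limma adjusted p = 0.0852), and OSM, a cytokine of the same family as LIF, had 0 to 3 reads per library. MTMR3 moved as LIF did, with a log2 change of 0.28 and -0.27 in the 2 comparisons with IAA (limma voom adjusted p = 0.00129 and 0.00117).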
